A study of Mus musculus with 7 samples.

Results

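The granins and the receptor-type tyrosine phosphatase-like proteins of dense-core granules were followed across 7 libraries of sorted mouse pancreatic alpha cells. The genes were taken from the deposited count table by symbol, and all 7 were found among its 55536 genes: the granins Chga, Chgb, Scg2, Scg3 and Vgf, and the phosphatase-like Ptprn and Ptprn2. All passed the filter on low counts. They were chosen by name and not by a measured value, though with earlier results of these data known. The study asked how the homeodomain transcription factor NKX2.2 regulates gene expression in alpha cells, the glucagon-secreting cells of the islet. The 4 control libraries came from mice of the genotype Nkx2.2+/+;Gcg-iCre;Rosa26:tdTomato and the 3 knockout (KO) libraries from Nkx2.2fl/fl;Gcg-iCre;Rosa26:tdTomato mice. The design text gives the strain as C57B1/6J. Both groups carry the Cre recombinase driven by the glucagon gene and the red tdTomato reporter that marked the cells for sorting, so recombination and sorting both depend on past glucagon gene activity. The labels used here give no age, no sex, no treatment and no number of mice per library. Where nothing says that libraries came from separate mice, p-values measure only the spread between these libraries.

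Granins are acidic secretory proteins that aggregate with hormones in the trans-Golgi network and help dense-core granules to form and load. Several are also precursors, cut by prohormone convertases into peptides such as pancreastatin from chromogranin A, secretoneurin from secretogranin II and the peptides of VGF. Ptprn (also called ICA512) and Ptprn2 (phogrin) encode membrane proteins of the granule whose cytoplasmic domains resemble tyrosine phosphatases with little or no such activity, and both are autoantigens in type 1 diabetes.

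Total counts per library ran from 45483504 to 72456557. Control 4 and 1 KO library were the deepest of their groups. That KO library is called unnumbered here, because its column is numbered 4 while KO titles run from 1 to 3. Control 4 had counts for 31024 genes and the other 6 libraries for 23150 to 25873. Nkx2-2, the targeted gene (chromosome 2, 147177546 to 147194243, GRCm38), had 10468 ± 1618 normalized counts (SD, n = 4) in controls, against 7662 ± 115 (SD, n = 3) after the knockout. Its adjusted p was 0.0218 in DESeq2 and 0.152 in edgeR, and with 1 library removed at a time it passed in 2 of 7 DESeq2 fits. With numbers 1 and 2 as a replicate block over 4 libraries its adjusted p was 0.0934 in DESeq2. A block over the column numbers both groups share, chosen after seeing the data, gave 0.0198 in DESeq2. The log2 fold change was -0.36 with either block. The labels do not say which exons are flanked by the recombination sites, so counts over the whole gene check the deletion only in part. Glucagon transcripts took 12.5% ± 1.1 (SD, n = 4) of control counts and 6.48% ± 0.799 (SD, n = 3) of KO counts, and alpha cell markers were present in every library. Transcripts of other islet hormones were also abundant: by level per exon length in controls, Ppy ranked 6, Sst 11 and Ins2 13 among all genes. In such sorted pools, fewer cells of a type and less RNA per cell cannot be told apart.

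Of the 7 genes, 2 were past the threshold in DESeq2 (adjusted p under 0.05) and both were lower in KO. Vgf fell to 37.1% of its control level and Ptprn2 to 75.5%. Among all 17571 genes tested, 4.51% were past the threshold, 2.24% higher and 2.27% lower in KO, and among the 6670 with a mean of at least 1000 normalized counts 5.61% were past it. Chga and Chgb stood at 1.41 and 1.36 times their control levels without passing the test, while Scg2, Scg3 and Ptprn lay between 0.971 and 1.13 times. Without control 4 the same test again called 2 of the 7. In edgeR's quasi-likelihood test, where 1.05% of all genes were called (1.34% without control 4), Vgf alone of the 7 passed with or without control 4.

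Promoter sequence was examined because several of the 7 genes varied together across libraries, as described further on, and 6 of the 7 genes matched the RefSeq promoter table (GRCm38.p6, from 250 bases before to 50 bases after each annotated start). Vgf was not matched. The letters TGACGTNA, the core of the cyclic AMP response element that is well known in granin promoters, were found on either strand in 3 of the 6 matched genes, Chga, Chgb and Scg2, against 2.95% of 32544 promoters. Here and below a gene counts if any of its promoters holds the letters, while the share is of single promoters. The palindrome TGACGTCA, a special case of it, was found in Chgb and Scg2 and in 1.80% of promoters. The 30 bases around each site are shown 5′ to 3′ on the strand of the gene, with the element in capitals:
Chga: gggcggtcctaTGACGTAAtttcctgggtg
Chgb: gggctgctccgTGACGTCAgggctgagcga
Scg2: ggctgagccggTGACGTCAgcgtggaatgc
The stretches are chr12:102554886-102554915 on the plus strand for Chga, chr2:132781559-132781588 on the plus strand for Chgb and chr1:79440076-79440105 on the minus strand for Scg2. The element began 44, 72 and 68 bases before the RefSeq start in these genes. For Chgb and Scg2 the element lies within an exon annotated by GENCODE M21. Scg3, whose Pearson correlation with Chga across libraries was 0.926, held no TGACGTNA. It did hold TGACG, the first letters of the element, 30 bases before the start. TGACG was found in 5 of the 6 matched genes and in 20.9% of promoters. For Scg2, with the palindrome, the correlation with Chga was 0.733, and 0.414 without control 4. Whether the element has a part in the shared variation was not tested.

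Ptprn2 is shown as the phosphatase-like gene that fell. Its 250 bases before the start, chr12:116485470-116485719 on the plus strand, lie outside annotated exons and hold no TGACGTNA. Capitals mark AAGTG, the core letters of NKX2-type binding sites, on either strand:
Ptprn2: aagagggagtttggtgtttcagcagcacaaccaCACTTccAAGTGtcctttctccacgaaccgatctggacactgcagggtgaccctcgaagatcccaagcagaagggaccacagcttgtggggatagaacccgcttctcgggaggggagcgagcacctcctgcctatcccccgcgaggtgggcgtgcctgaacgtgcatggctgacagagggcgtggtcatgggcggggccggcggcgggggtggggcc
AAGTG was found in 3 of the 6 matched genes (Ptprn, Ptprn2 and Scg2) and in 46.3% of all promoters, so its presence is common at this window length. A match of letters is not a bound site, and binding was not measured here.

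Compared per exon length within control libraries, the 7 genes spanned a wide range of levels. Levels are given as counts per kilobase of exon, scaled so that all genes of a library sum to 1000000. Chga was the highest at 1370 ± 245 (SD, n = 4) and ranked 15 among all genes, followed by Chgb at 262 ± 31.6, Scg2 at 228 ± 34.4 and Scg3 at 127 ± 13. Chgb and Scg2 overlapped between libraries, with 224 to 292 for Chgb and 192 to 258 for Scg2, so their order is not resolved. Ptprn2 (43.6 ± 4.25) and Ptprn (36.6 ± 1.61) came next, and Vgf was the lowest at 3.23 ± 0.373, ranking 3203. Chga alone made up 66.0% ± 1.84 of the summed level of the 7 genes in controls, against 70.3% ± 2.45 after the knockout (SD, n = 3). The length matters most for Ptprn2: with its longest annotated transcript in place of all exons its level was 86.5, and that of Chga was 1954. The order of the 7 means was the same with either length.

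**Figure D1:**
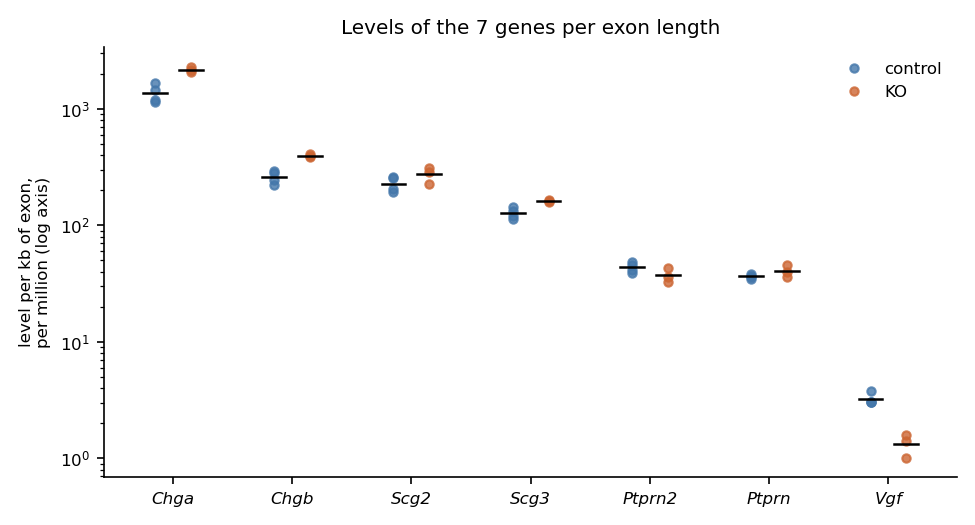
Level of each gene per kilobase of exon, scaled to a sum of 1000000 per library, on a log axis. Points are libraries (4 control, 3 KO) and lines are group means. In controls Chga is highest with a mean of 1370 and Vgf lowest with 3.23.

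Vgf (ENSMUSG00000037428, chromosome 5, 137026392 to 137033351, plus strand) encodes a granin-like precursor first known as a nerve growth factor-inducible gene. Controls 1 to 4 had 1475, 1658, 1791 and 1663 normalized counts of it. KO 1 had 500, KO 2 had 827 and the unnumbered KO library 504. The groups did not overlap, which was also the case for 12.0% of all genes tested and for 13.4% of those with a mean of at least 1000 normalized counts, and KO 2 was the highest of the KO libraries. The means were 1647 ± 130 (SD, n = 4) and 610 ± 188 (SD, n = 3), so control libraries held 2.70 times the KO level. On the log2 scale the change was -1.43 ± 0.20 (SE), and the adjusted p was 2.67e-10 by DESeq2 and 0.0137 by edgeR. Vgf passed the threshold in each of the 17 alternative fits, with log2 fold changes between -1.72 and -1.28.

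Ptprn2 (ENSMUSG00000056553, chromosome 12, 116485720 to 117276849, plus strand) encodes phogrin. Controls 1 to 4 held 64637, 64172, 66506 and 61217 normalized counts. The KO values were 51629 in KO 1, 49221 in KO 2 and 44483 in the unnumbered KO library. The groups did not overlap, and the controls lay close together: their coefficient of variation was 3.41%, against a median of 10.6% over the 6670 tested genes with at least 1000 normalized counts on average. The mean fell from 64133 ± 2190 (SD, n = 4) to 48444 ± 3636 (SD, n = 3), which is -0.40 ± 0.09 (SE) on the log2 scale with a DESeq2 adjusted p of 0.000377. It passed in 15 of 17 alternative fits. The exceptions were edgeR with all libraries (adjusted p 0.159) and edgeR without control 4 (0.109).

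Ptprn (ENSMUSG00000026204, chromosome 1, 75247027 to 75264502, minus strand), the closest relative of Ptprn2, did not pass the test. Its normalized counts ran from 22958 in control 4 to 32522 in control 3 and from 23632 to 28165 in KO libraries, with the KO range inside the control range. The log2 fold change was -0.04 ± 0.14 (SE, DESeq2 adjusted p 0.998), with a 95% interval from -0.32 to 0.23. Opposite-strand exons cover 4.45% of its exon length, and none of that of the other 6 genes.

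The count of Ptprn2 per count of Ptprn is independent of the scaling between libraries. Controls 1 to 4 gave 2.68, 2.29, 2.04 and 2.67, while KO 1 gave 1.83, KO 2 gave 1.85 and the unnumbered KO library 1.88. All KO ratios lay below all control ratios, and the KO ratios were nearly equal. The mean log2 ratio differed by -0.37 between the groups (exact permutation test over 35 splits, two-sided p = 0.0571, 0.0857 after adjustment over 3 ratios). This misses the threshold, and the smallest p the design allows is 0.0286.

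**Figure D2:**
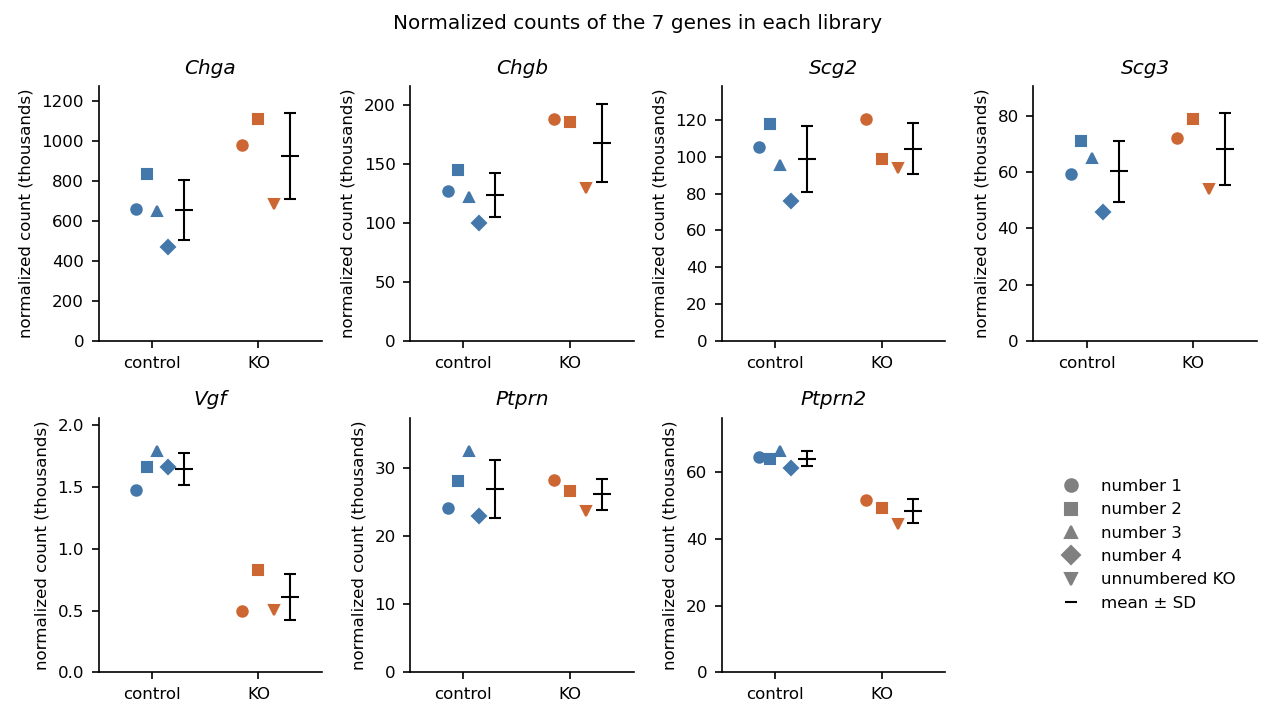
Normalized counts divided by 1000 (axes from 0) of the 7 genes in each library, with the group mean and SD beside the points. Vgf and Ptprn2 separate the groups, with KO libraries at 500 to 827 and 44483 to 51629 against controls at 1475 to 1791 and 61217 to 66506, while the other 5 genes overlap.

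Chga (ENSMUSG00000021194, chromosome 12, 102554969 to 102565028, plus strand) encodes chromogranin A. Controls 1 to 4 held 660606, 837166, 648468 and 470141 normalized counts of it. The value was 978923 for KO 1, 1110066 for KO 2 and 687326 for the unnumbered KO library. Control 4 was the lowest control and the unnumbered KO library the lowest KO, and the latter lay under control 2. The means were 654095 ± 149920 (SD, n = 4) and 925438 ± 216386 (SD, n = 3), or 0.50 ± 0.20 (SE) on the log2 scale. DESeq2 gave an adjusted p of 0.171 and edgeR one of 0.588. Chga took 1.16% ± 0.232 of control counts and 1.75% ± 0.296 of KO counts.

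Chgb (ENSMUSG00000027350, chromosome 2, 132781278 to 132795079, plus strand), the chromogranin B gene, followed Chga closely. Controls 1 to 4 held 126931, 145320, 121698 and 99934 normalized counts. KO 1 held 188014, KO 2 held 185822 and the unnumbered KO library 129592. As for Chga, the deepest library of each group was its lowest, and the groups overlapped only through control 2 and the unnumbered KO library. The means were 123471 ± 18677 (SD, n = 4) and 167809 ± 33116 (SD, n = 3), or 0.44 ± 0.16 (SE) on the log2 scale, and the adjusted p was 0.116 by DESeq2 and 0.451 by edgeR.

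Whether Chga and Chgb are called depends on how the libraries are set against each other. Each passed in 8 of 17 alternative fits, and the fold change was above 0 in all 17 for both. Within pairs of equal column number (1, 2 and 4), Chga was higher in KO by 0.57, 0.41 and 0.55 on the log2 scale and Chgb by 0.57, 0.35 and 0.37. A replicate block of this number over 6 libraries was chosen after seeing the data. With it the log2 fold change was 0.51 for Chga (adjusted p 1.31e-10 in DESeq2) and 0.43 for Chgb (1.31e-06), and 5.21% of all genes were called. With the block over numbers 1 and 2 alone (4 libraries), the values were 0.49 (1.87e-05) for Chga and 0.46 (0.000162) for Chgb. Scaling by library totals also took both past the threshold (0.0175 for Chga and 0.00355 for Chgb). That scaling moved the median log2 fold change of all genes from 0.01 to 0.112. Of the 7 fits that leave out 1 library, 2 called each gene, those without control 2 (0.0230 and 0.0366) and without the unnumbered KO library (0.0138 and 0.00256). Without control 4 neither passed (0.200 and 0.153). Without KO 2 Chga stood at 0.35 (adjusted p 0.670 in DESeq2), and without KO 1 Chgb stood at 0.35 (0.681). Per Chga count there were 0.191 ± 0.0161 Chgb counts (SD, n = 4) in controls, against 0.183 ± 0.0133 (SD, n = 3) after the knockout (exact permutation test, two-sided p = 0.400, also 0.400 after adjustment over 3 ratios).

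Scg2 (ENSMUSG00000050711, chromosome 1, 79434669 to 79440120, minus strand), which encodes secretogranin II, overlapped between the groups. Its normalized counts ran from 75786 in control 4 to 117923 in control 2 and from 93870 to 120299 in KO libraries. The log2 fold change was 0.08 ± 0.16 (SE, DESeq2 adjusted p 0.990), with a 95% interval from -0.23 to 0.39, and its sign turned to -0.03 without control 4 or without KO 1.

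Scg3 (ENSMUSG00000032181, chromosome 9, 75643189 to 75684056, minus strand) encodes secretogranin III, which binds chromogranin A and cholesterol-rich membrane at the forming granule. Its normalized counts ran from 45833 in control 4 to 70975 in control 2, and from 53853 in the unnumbered KO library to 78817 in KO 2. The log2 fold change was 0.18 ± 0.17 (SE, DESeq2 adjusted p 0.896), with a 95% interval from -0.16 to 0.52. With the column number as a replicate block it was 0.22 and passed the threshold (adjusted p 0.0287).

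**Figure D3:**
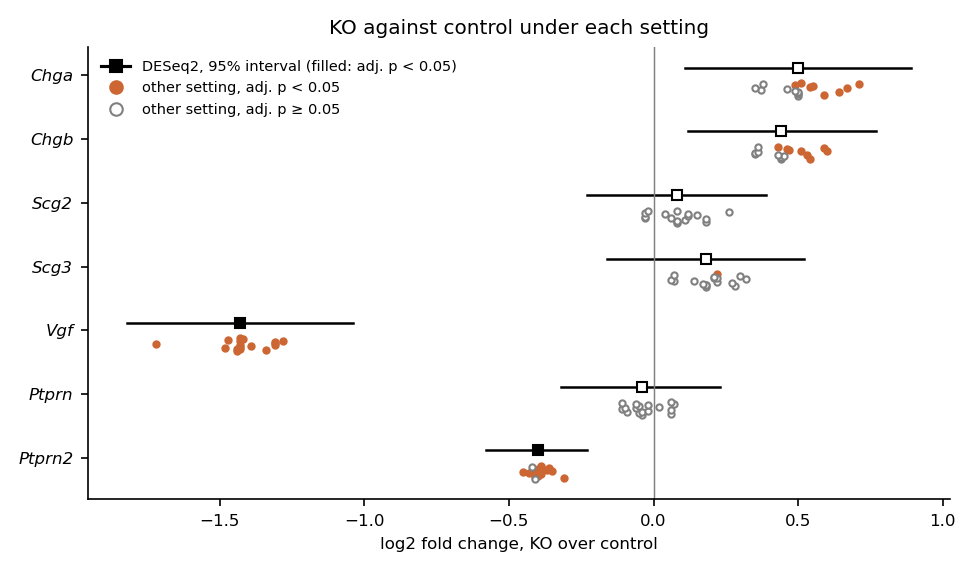
Log2 fold change of KO over control for the 7 genes. Squares with lines are the DESeq2 values with 95% intervals, and points are the 17 alternative fits of each gene, filled where the adjusted p was under 0.05. Vgf is filled throughout between -1.72 and -1.28, Ptprn2 in 15 fits and Chga and Chgb in 8 each.

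Across the 7 libraries the genes fell into different patterns, given here as Pearson correlations of log2(normalized count + 1), which share group and depth between points and carry no test. Chga and Chgb had an r of 0.981, and Chga and Scg3 0.926. Vgf and Ptprn2 had 0.921. Without control 4 these values were 0.972, 0.850 and 0.925. Scg2 was less tied to Chga, with an r of 0.733 that dropped to 0.414 without control 4. The genes most like each of the 7 were sought among 12759 others with a mean normalized count of at least 100. As the highest of so many over 7 libraries, their r values are high by selection. Those most like Chga were Calr (r 0.995, log2 fold change 0.36), the endoplasmic reticulum chaperone calreticulin, and Pdia4 (0.994, 0.6), a protein disulfide isomerase. Neither passed the threshold (adjusted p 0.271 and 0.0877 in DESeq2). Those most like Vgf were Ctxn2 (0.991, log2 fold change -1.37) and Atcay (0.988, log2 fold change -2.35), both past the threshold. Those most like Ptprn2 were Gars (0.996), a glycyl-tRNA synthetase gene with a log2 fold change of -0.69, and 2310022B05Rik (0.992, -0.92). The pairs for the others were Adgra3 and Lrrn2 for Chgb, Zfp668 and Rspo4 for Scg2, Plp2 and Rpl32 for Scg3, and Timm13 and Vim for Ptprn, with r from 0.980 to 0.995.

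The granins are packed with hormone, so their transcripts were set against those of glucagon within each library. Gcg counts per Chga count were 11.2, 7.80, 12.4 and 13.1 in controls 1 to 4, against 3.40 in KO 1, 3.69 in KO 2 and 4.13 in the unnumbered KO library. The log2 ratio of the 5 granins summed to Gcg averaged -2.93 ± 0.31 (SD, n = 4) in controls, against -1.44 ± 0.13 (SD, n = 3) after the knockout. No KO library reached down to a control, and the difference was 1.48 or 2.80-fold (exact permutation test, two-sided p = 0.0286, the smallest of 35 splits, and 0.0857 after adjustment over 3 ratios). Gcg itself fell, with a log2 fold change of -1.04 (adjusted p 6.76e-10 in DESeq2 and 0.175 in edgeR), so the ratio holds that fall together with the higher values of Chga and Chgb. The 7 genes together took 1.82% ± 0.298 of control counts and 2.54% ± 0.351 of KO counts.

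**Figure D4:**
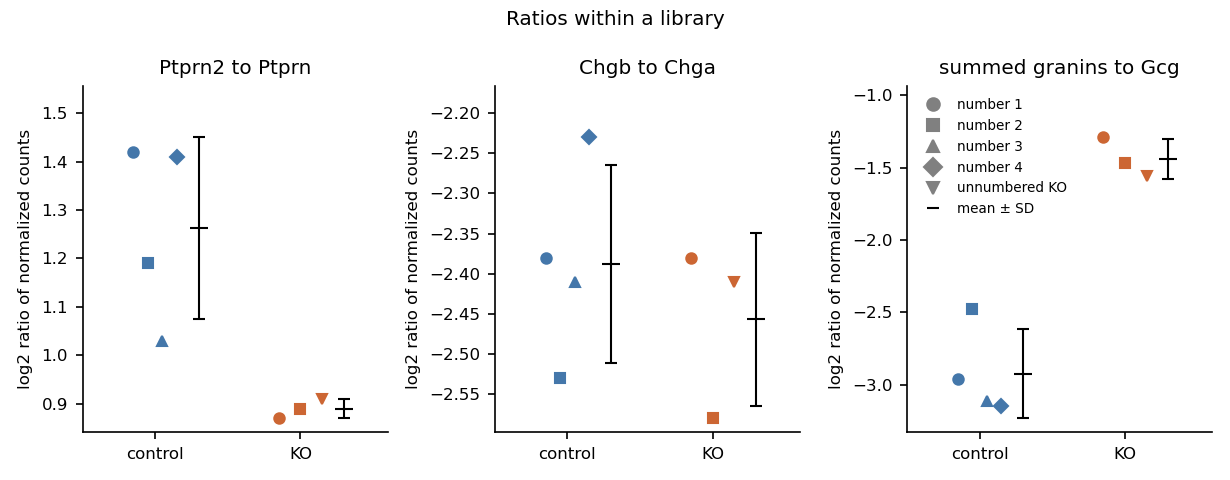
Log2 ratios of normalized counts within each library, with group mean and SD. Ratios of Ptprn2 to Ptprn (0.87 to 0.91 in KO against 1.03 to 1.42 in controls) and of the summed granins to Gcg (-1.56 to -1.29 against -3.15 to -2.48) do not overlap, and those of Chgb to Chga do.

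The wider granule pathway was read from 6 lists, and the phosphatase family from another, together 82 different genes. Of these, 78 received an adjusted p in DESeq2 and 12 passed. Over all 17571 genes tested 4.51% passed, and 5.61% of those with a mean of at least 1000 normalized counts. These are the shares to set beside the count of each list below. Among 8 convertases and their helpers, 1 rose and 1 fell, with a median log2 fold change of -0.14 against 0.01 over all genes tested. Pcsk1n, which encodes proSAAS, a granin-like inhibitor of the convertase PC1/3, fell, with 95169 ± 21014 normalized counts (SD, n = 4) in controls against 57799 ± 10495 (SD, n = 3) (log2 fold change -0.72, adjusted p 0.00285 in DESeq2 and 0.165 in edgeR). Pcsk1, the gene of that convertase, rose from 3245 ± 1036 to 5847 ± 957 (0.85, adjusted p 0.00877 in DESeq2), and lost the call without KO 1 (0.194), without control 3 (0.0649) and in edgeR (0.177).

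Among 8 hormone genes carried in such granules, Ppy (1.51), Pyy (1.01) and Iapp (0.93) rose and Gcg fell. Their medians were 0.79 for the list and 0.01 for all genes. Only Ppy also passed in edgeR (adjusted p 0.0474), and Iapp was lost without KO 1 (0.0853) or without the unnumbered KO library (0.112), and with the replicate block over numbers 1 and 2 (0.68, adjusted p 0.788 in DESeq2).

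Among 12 genes of granule formation the median was 0.11, with 1 gene higher and 1 lower. Ica1, whose BAR-domain product acts at the Golgi during granule formation and is an islet autoantigen, rose, with 4371 ± 520 normalized counts (SD, n = 4) in controls against 5923 ± 286 (SD, n = 3) (0.44, adjusted p 0.0101 in DESeq2). With 1 library removed at a time it passed in 2 of 7 fits, those without control 2 and without control 4. Sntb2, the syntrophin that binds the cytoplasmic tail of the Ptprn protein, fell from 1314 ± 170 to 928 ± 101 (-0.50, adjusted p 0.0337 in DESeq2), and passed in 3 of those 7. With the replicate block over numbers 1 and 2 Sntb2 stood at -0.56 (adjusted p 0.107 in DESeq2). Neither passed in edgeR with all libraries (adjusted p 0.112 and 0.152), and without control 4 Ica1 passed there (0.53, adjusted p 0.0251).

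With all libraries none of 20 docking and release genes passed in DESeq2 or edgeR, with a median of 0.05, and the unadjusted p was under 0.05 for 4 of them in DESeq2 and 3 in edgeR. In 11 of the 17 alternatives 1 to 4 of these genes were called, with 2 by library totals, 2 without control 4, 2 without KO 2, 2 with the block over column numbers and 4 with a term for the deepest library of each group. None of 11 granule membrane genes passed in either, with a median of -0.10, and the unadjusted p was under 0.05 for 1 in DESeq2 and 1 in edgeR, while 7 of the 17 alternatives called 1 gene, the block over column numbers among them. With 4.51% of all genes called in DESeq2, the lack of a call does not set lists of 20 and 11 genes apart. The most abundant were Syt13 (0.07) and Syt7 (0.24) of the synaptotagmin family, of which Syt7 encodes a calcium sensor of release, and Cltrn (0.16) and Slc30a8 (-0.34, adjusted p 0.0755 in DESeq2), the latter the granule zinc transporter. Of 9 islet autoantigen genes outside the 7, Iapp and Ica1 passed, as described above, and the median was 0.36.

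Receptor-type tyrosine phosphatases formed the comparison family for Ptprn and Ptprn2. Of 19 such genes, 15 received an adjusted p, 3 fell, 1 rose, and the median was 0.18. Over all genes tested 2.27% were called lower and 2.24% higher. Ptprd fell, with 8550 ± 1777 normalized counts (SD, n = 4) in controls against 3579 ± 613 (SD, n = 3) (log2 fold change -1.26, adjusted p 6.16e-10 in DESeq2 and 0.0171 in edgeR). Ptprk fell from 5970 ± 220 to 4398 ± 240 (-0.44, adjusted p 8.60e-05 in DESeq2 and 0.0452 in edgeR). Both passed in all 17 alternative fits. Ptprr (-0.62, adjusted p 0.0187 in DESeq2) lost the call in 10 of the 17, including those without control 1 (0.0535), control 3 (0.136), KO 1 (0.245) or the unnumbered KO library (0.135). Both replicate blocks ended it, with -0.53 (adjusted p 0.141 in DESeq2) over column numbers and -0.39 (0.742) over numbers 1 and 2. Ptprt rose from 6020 ± 1039 to 9486 ± 221 (0.66, adjusted p 0.000286 in DESeq2 and 0.0616 in edgeR).

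**Figure D5:**
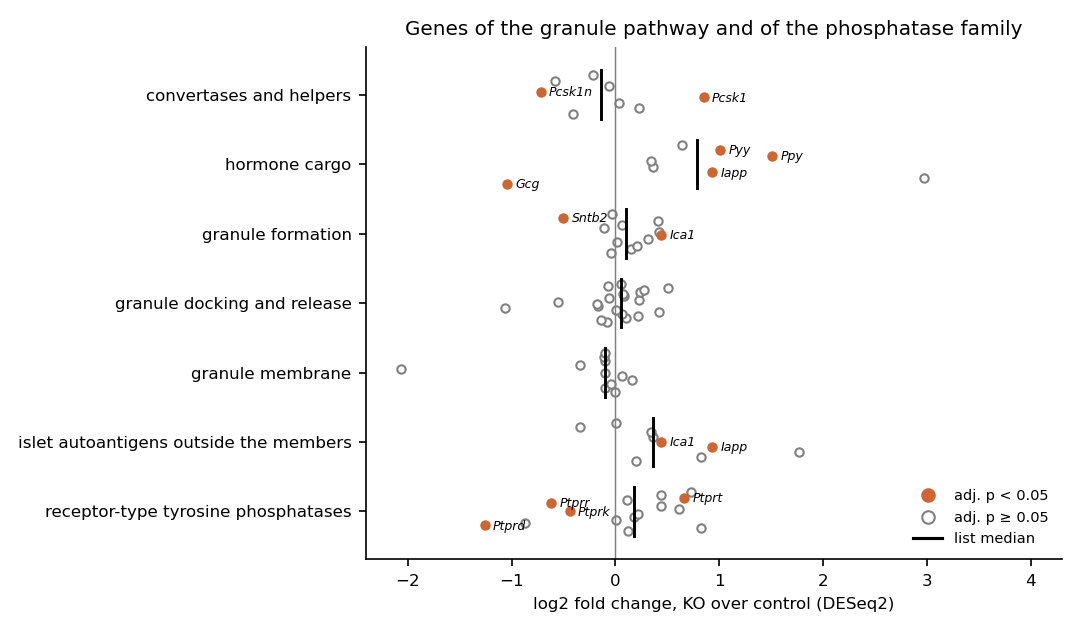
Log2 fold change of KO over control (DESeq2) for each tested gene of 7 lists, filled and named where the adjusted p was under 0.05, with the list median as a line. In this fit the docking and membrane lists hold no filled point, and Ptprd at -1.26 is the lowest of the named phosphatases.

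Among summed markers of other islet cells, those of gamma cells separated the groups, while those of beta and delta cells overlapped between them. The part of such cells in the values above was not tested. The 2 gamma cell markers summed to 178890 to 401928 normalized counts in controls and 615883 to 783969 in KO libraries. The sum was carried by Ppy, and the log2 fold change of the other, Aqp4, was 0.05. The 8 beta cell markers summed to 336739 to 690569 and 529402 to 973010, with 1 of 8 past the threshold (Iapp), and the 4 delta cell markers to 196263 to 398978 and 355301 to 632402, with 1 of 4 (Rbp4). These sums were mostly Ins1 and Ins2 for beta cells and Sst for delta cells. Taken singly, all 8 beta markers had log2 fold changes above 0, from 0.2 (G6pc2) to 0.93 (Iapp). All 4 delta markers did so too, from 0.59 (Hhex) to 1.55 (Rbp4). None of these 14 markers was at 0 in any library. Of 8 alpha cell markers 6 fell, and the list summed to 6417122 to 8411910 in controls and 2925132 to 4240504 in KO libraries. Acinar markers summed to 288 to 11314 in controls and 1696 to 6067 in KO libraries, with Amy2a5 at 0 throughout. Spp1, 1 of 5 duct markers, was higher in KO (0.65), and C1qa, 1 of the 2 leukocyte markers tested, was lower (-0.82).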

How the data were processed

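RNA of 4 control and 3 KO libraries was prepared with a strand-specific low-input total RNA kit, per the labels' protocols. The authors deposited 1 table of raw counts per gene. Per the submitters' processing notes the reads were handled with FastQC, STAR, featureCounts and DESeq2 on mm10, while versions and the strand setting are not given in the sources used here. All 55536 gene identifiers were found in GENCODE M21 (GRCm38), which gave positions and exon lengths. Even numbers made up 84.4% to 88.9% of the counts between 1 and 10, as arises when each mate of a fragment is counted, so totals overstate the number of fragments.

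Counts were compared with the Wald test of DESeq2 1.42.0 in R 4.3.3 (genes without counts removed, default filters, Benjamini-Hochberg over all genes), which the series' design text names. Normalized counts are counts divided by its size factors. edgeR 4.0.16 (quasi-likelihood, TMM, default filter), other scalings, filters, covariates and left-out libraries were alternatives, and scripts were tested on simulated data. In the simulated set DESeq2 made more false calls than its threshold sets and edgeR came close to it. That set took each gene's spread from a fitted trend and held no library that stood apart, so it does not rank the tools on these data. Ratios were compared by exact permutation over libraries. The text names all 7 genes, listed genes past the threshold (or the 2 most abundant where fewer passed) and the 2 genes most like each of the 7. The genes and lists were chosen with earlier results of these data known.

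Titles number the controls 1 to 4 and the KO samples 1 to 3, while the KO columns are numbered 1, 2 and 4, so the KO column numbered 4 was given no title number. Deviations from group means over 12766 genes correlated by 0.290 and 0.283 within numbers 1 and 2, which titles and columns share. The unnumbered KO library correlated by 0.480 with control 4, which shares its column number, and by -0.397 with control 3, its partner by title if it is KO 3. Of the 2 numberings, only that of the columns thus gave correlations above 0.1 throughout. KO 2 correlated more with control 3 (0.377) than with control 2, so pairing KO 2 with control 3 would also keep all above 0.1. What a number marks is not given in the sources used here. Fits with the number as a block are given beside the named results whose call they change.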

Additional observations from a re-analysis of the deposited data

How the results depend on the processing

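Vgf kept its direction and its call in all 17 alternatives, and Ptprn2 kept its direction in all 17. The number of the 7 genes called was 2 with DESeq2, 1 in edgeR with or without control 4, and 4 with library totals, without the deepest library of each group, with a term for those 2 libraries, with a covariate for Y-linked genes, and with the replicate block over numbers 1 and 2. It was 5 with the replicate block over column numbers, which changed the calls of Chga, Chgb and Scg3 and no other among the 7. Over all genes, library totals called 981, the fit without the deepest libraries 880 and the term for them 1379. The Y-linked covariate called 1276, the block over numbers 1 and 2 called 580 and that over column numbers 1008, against 792 with DESeq2 on all libraries. Calls of listed genes that a replicate block ended were those of Ptprr, Iapp and Sntb2, with values beside each. Leaving out 1 library gave 2 to 4, with 4 without control 2 or the unnumbered KO library. The cause was not tested.

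Over all genes 792 were called, against 203 in edgeR, 249 in edgeR without control 4, 1379 with the term for the deepest libraries and 1276 with the Y-linked covariate, and 430 (without KO 1) to 910 when 1 library was left out. Among the listed genes 12 were called, against 3, 4, 23 and 22 in the same 4 settings and 7 (without KO 1) to 19 (without control 2). edgeR without control 4 and the block over column numbers were chosen after seeing the data.

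Values without a call turned sign in a few settings. Leaving out 1 library gave -0.03 to 0.18 for Scg2 and -0.11 to 0.06 for Ptprn. Scg2 was -0.03 without control 4, without KO 1 and with the replicate block over numbers 1 and 2, and -0.02 in edgeR without control 4. Ptprn was 0.06 with library totals, without control 3 and with the block over column numbers, 0.02 without the unnumbered KO library and 0.07 with the block over numbers 1 and 2.

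The ratio of granins to Gcg differed by 1.41 to 1.63 when 1 library was left out and by 1.47 without the 2 deepest, where the exact p was 0.0667 or 0.100, the smallest that fewer libraries allow. With the longest transcript as length, levels were 1954 for Chga, 142 for Scg3, 42.6 for Ptprn and 86.5 for Ptprn2. The lowest normalized count of the 7 genes was 500 (Vgf in KO 1). The deepest library of each group and the scaling to totals changed calls of Chga and Chgb, as given above.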
